A study of Mus musculus with 28 samples.

Results

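The genes described here encode the proteins of the cytosolic ribosome and of the mitochondrial ribosome. They were chosen by symbol from the deposited expression table: symbols starting with Rpl or Rps and a digit or p for the cytosolic set, without pseudogenes and without the Rps6k kinases, and symbols starting with Mrpl or Mrps and a digit for the mitochondrial set. A gene also had to average at least 5 CPM (counts scaled to a library total of 1000000) over the 28 libraries in that table. This left 83 cytosolic and 72 mitochondrial genes, 155 of the 30386 genes in the table. The cytosolic set held 42 large subunit genes, 30 small subunit genes, 3 genes of the stalk and 8 paralogs or related genes, and the mitochondrial set held 47 large subunit and 25 small subunit genes. At the threshold, Rps27rt (21.9 CPM) and Mrpl22 (12.8 CPM) were the lowest genes kept, and Rpl29 (2.69 CPM) and Mrps28 (4.42 CPM) were the highest left out.

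The cells were E14 mouse embryonic stem cells, a line derived from a blastocyst, grown in serum-free N2B27 medium. In 2iL the medium also holds CHIR99021 (a GSK3 inhibitor), PD0325901 (a MEK inhibitor) and the cytokine LIF, which together keep the cells in the naive pluripotent state. Cells were collected 24, 48, 96 and 120 h after 2iL was taken away, or after 48 or 96 h without 2iL and then 24 h with 2iL again (48 h + 2iL, 96 h + 2iL), and were compared with cells kept in 2iL. Each of the 7 groups had 4 libraries, 1 from each of 4 numbered experiments, and all groups share the same cell line. The 120 h cells match the 96 h + 2iL cells in total time, and no group without 2iL matches the 48 h + 2iL cells. The groups, 120 h included, are those of the sample labels. The written treatment protocol lists withdrawal times up to 96 h and the 24 h returns, and no 120 h. The labels name no separate clones or passages, so the p-values measure the spread between these experiments, which may be partly technical.

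The cytosolic ribosome translates nearly all cellular mRNAs, and its proteins are made in equal amounts from genes whose mRNAs begin with a run of pyrimidines that ties their translation to mTORC1. The mitochondrial ribosome is built in the mitochondrial matrix around rRNAs of the mitochondrial genome, but its proteins are encoded in the nucleus and imported, and it makes only subunits of the respiratory chain and ATP synthase. A few cytosolic proteins have a second gene: in mice Rpl10l and Rpl39l are autosomal paralogs, best known from male germ cells, of the X-linked genes Rpl10 and Rpl39.

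The 4 genes of the Rpl10l and Rpl39l pairs, and Mrps17 and Mrps24, the mitochondrial genes with the largest rise at 48 h and the largest fall at 120 h, carry most of what follows. Their start regions are shown from 60 bases before to 30 bases after the annotated start, from RefSeq on GRCm38.p6, with CG dinucleotides in capitals. The windows lie at chr12:66284372-66284461 on the minus strand for Rpl10l, chrX:74270756-74270845 on the plus strand for Rpl10, chr16:10170168-10170257 on the plus strand for Rpl39l, chrX:37085193-37085282 on the minus strand for Rpl39, chr5:129715437-129715526 on the plus strand for Mrps17 and chr11:5707672-5707761 on the minus strand for Mrps24.
Rpl10l: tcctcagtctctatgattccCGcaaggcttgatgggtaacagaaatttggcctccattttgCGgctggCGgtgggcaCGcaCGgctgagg
Rpl10: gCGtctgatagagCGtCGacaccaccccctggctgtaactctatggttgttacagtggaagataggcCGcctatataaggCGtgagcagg
Rpl39l: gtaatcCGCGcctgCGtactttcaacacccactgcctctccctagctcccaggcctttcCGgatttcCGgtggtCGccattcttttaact
Rpl39: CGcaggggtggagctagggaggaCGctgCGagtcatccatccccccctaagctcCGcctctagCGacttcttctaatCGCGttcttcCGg
Mrps17: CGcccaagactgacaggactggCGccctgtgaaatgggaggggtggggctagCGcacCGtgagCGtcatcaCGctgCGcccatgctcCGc
Mrps24: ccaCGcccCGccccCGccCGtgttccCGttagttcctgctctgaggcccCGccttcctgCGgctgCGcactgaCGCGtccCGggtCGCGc

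Each library held between 1554830 and 2828694 counts on genes. The libraries were made by 3′ digital gene expression, in which a read marks the 3′ end of a transcript, so a count does not scale with transcript length. The count files place 52.3% to 60.1% of reads in the category of alignments that are not unique, taken here as reads that map to more than 1 place, and assign them to no gene. This touches the cytosolic set in particular, because its genes have many processed pseudogenes. The share of such reads differed by group. It was 57.8% to 60.1% at 48 h, 53.6% to 54.7% at 120 h and 52.3% to 53.55% in 96 h + 2iL cells, against 54.7% to 57.0% in 2iL. Its part in the results below was not tested. In the last 300 bases of the annotated transcripts, a median of 50% of all 50-base stretches of a cytosolic gene also occurred in another annotated gene, and 72 of 83 genes shared at least 1. In the mitochondrial set the median was 0% and 19 of 72 genes shared any. The single non-coding gene Gm42418 took 12.5% to 20.4% of the counts and mitochondrially encoded genes took 1.14% to 3.10%. The mitochondrially encoded share averaged 1.37% ± 0.21 at 120 h, against 2.37% ± 0.27 in 2iL (SD, n = 4 each). Levels of single genes and of marker lists are given as TMM-scaled CPM, in which the library totals are adjusted by edgeR's TMM factors. The summed level of 10 naive pluripotency markers was 65.74 to 95.5 CPM at 120 h, against 2241 to 2526 CPM in 2iL. The summed level of 6 formative markers was 1978 to 2785 CPM at 48 h, against 119.8 to 163.8 CPM in 2iL. By 120 h all 6 neural markers had risen, with a summed level of 226.8 to 478.7 CPM, against 13.15 to 23.18 CPM in 2iL. Of 6 primitive endoderm markers 2 passed the filter, at a sum of 12.06 to 15.29 CPM at 120 h, against 3.407 to 10.9 CPM in 2iL. The 6 fibroblast markers measured summed to 133.1 to 432.7 CPM at 120 h, against 161.4 to 339.3 CPM in 2iL. The naive markers summed to 103.7 to 673.1 CPM in 96 h + 2iL cells, against 82.41 to 208.3 CPM at 96 h. The neural markers summed there to 158.1 to 539.7 CPM, against 99.45 to 279.1 CPM at 96 h. The part of these shifts in the results below was not tested.

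Together the 83 cytosolic genes held between 7.36% and 9.05% of the counts in every library, and the share of the 72 mitochondrial genes had its highest group mean at 48 h. Out of counts without mitochondrially encoded genes and Gm42418, the mitochondrial mean was 0.6996% at 24 h and 0.689% at 48 h, so the order of these times turned with the denominator. The cytosolic share in experiments 1 to 4 was 7.78%, 8.25%, 8.16% and 8.65% in 2iL, 8.16%, 8.01%, 7.89% and 7.53% at 24 h, 8.20%, 8.54%, 8.58% and 8.50% at 48 h, 8.23%, 8.25%, 7.93% and 8.68% at 96 h, and 7.81%, 7.36%, 7.65% and 7.93% at 120 h. The groups overlapped throughout this course with 2iL, and the 120 h libraries lay at its lower edge. This overlap at 120 h rested on the denominator. Out of counts without mitochondrially encoded genes and Gm42418, the cytosolic share was 8.85% to 9.61% at 120 h, against 9.93% to 10.48% in 2iL, without overlap. The mitochondrial share was 0.512%, 0.521%, 0.470% and 0.492% in 2iL, 0.548%, 0.557%, 0.521% and 0.559% at 24 h, 0.562%, 0.564%, 0.575% and 0.572% at 48 h, 0.492%, 0.488%, 0.457% and 0.494% at 96 h, and 0.475%, 0.460%, 0.490% and 0.446% at 120 h. All 4 libraries at 24 h (lowest 0.52148%) and all 4 at 48 h lay above all 4 in 2iL (highest 0.5208%), and those at 96 and 120 h overlapped with 2iL. Without mitochondrially encoded genes and Gm42418, the mitochondrial share was 0.538% to 0.584% at 120 h, against 0.597% to 0.660% in 2iL, without overlap.

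With 2iL given again after 48 h, the cytosolic share was 8.69%, 8.83%, 8.95% and 9.05%, against 8.20%, 8.54%, 8.58% and 8.50% at 48 h, with no overlap. The mitochondrial share was 0.509%, 0.538%, 0.512% and 0.521% in 48 h + 2iL cells, against 0.562%, 0.564%, 0.575% and 0.572% at 48 h, again with no overlap but in the opposite direction. In 96 h + 2iL cells the shares averaged 8.21% ± 0.46 cytosolic and 0.458% ± 0.0037 mitochondrial, against 8.27% ± 0.30 and 0.483% ± 0.017 at 96 h (SD, n = 4 each), and the libraries overlapped in both sets. In bulk RNA, fewer cells of a type and less of an mRNA per cell cannot be told apart, and a share of counts says nothing of the total RNA of a cell. The ratio of cytosolic to mitochondrial counts ranged from 13.5 to 18.98 over the 28 libraries.

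**Figure D1:**
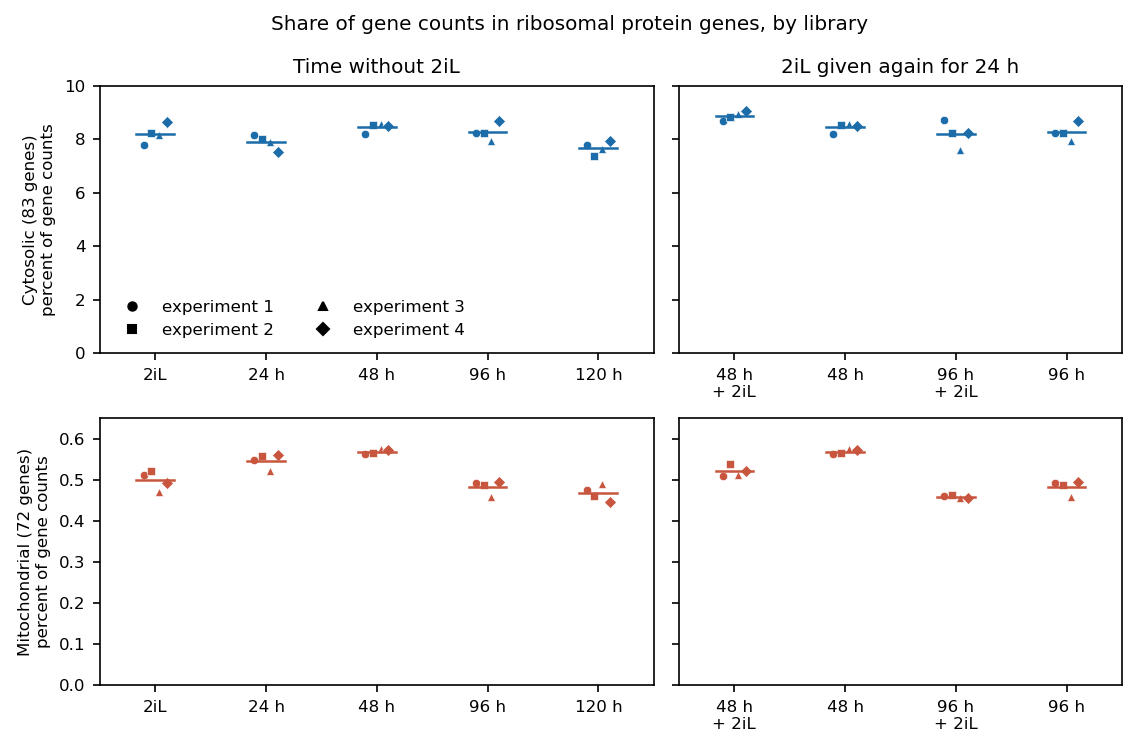
Share of all gene counts (percent, axes start at 0) held by the 83 cytosolic genes (top) and the 72 mitochondrial genes (bottom) in each library; symbols are the 4 experiments and lines the group means. The mitochondrial share averaged 0.499% ± 0.023 in 2iL, 0.568% ± 0.0065 at 48 h and 0.468% ± 0.019 at 120 h (SD, n = 4), while the cytosolic group means stayed between 7.69% and 8.88%.

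Gene by gene, the calls among the mitochondrial genes were mostly rises at 24 and 48 h of withdrawal and mostly falls at 96 and 120 h. Those among the cytosolic genes were mostly falls at 120 h. At 96 h the share of falls in each set lay below that among all genes, and at 120 h it was close to it. A gene was called changed at an adjusted p under 0.05 in edgeR's quasi-likelihood test, with Benjamini-Hochberg adjustment over the 11080 genes tested; all 155 genes were among these. All 4 time points were compared with the same 2iL libraries, so these comparisons are not independent of each other. At 24 h, 7.68% of all genes tested rose and 8.29% fell. There, 8 mitochondrial genes (11.1%) rose and 0 fell, and 1 cytosolic gene (1.2%) rose and 1 (1.2%) fell. At 48 h, 14 mitochondrial genes (19.4%) rose and 0 fell, where 14.6% of all genes rose and 13.2% fell. In the cytosolic set 7 genes (8.43%) rose and 0 fell. For the falls at 48 h, 0 mitochondrial genes and 1 cytosolic gene were lower even at an unadjusted p under 0.05, and DESeq2 called 0 in either set. At 24 h the counts of 0 mitochondrial falls compare with 1 gene at an unadjusted p under 0.05 and 0 by DESeq2.

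At 96 h, 6 mitochondrial genes (8.33%) rose and 11 (15.3%) fell, and 11 cytosolic genes (13.3%) rose and 6 (7.23%) fell. Of all genes tested, 21.9% rose and 19.2% fell there. At 120 h, 5 mitochondrial genes rose and 21 (29.2%) fell, and 2 cytosolic genes rose and 22 (26.5%) fell, where 24.6% of all genes rose and 22.6% fell. The shares of falls at 120 h were close to that among all genes, and the shares of rises were 6.94% (mitochondrial) and 2.41% (cytosolic). The median log2 fold change of the mitochondrial set was 0.13 at 24 h, 0.17 at 48 h, -0.11 at 96 h and -0.21 at 120 h, beside 0.01, 0.02, 0.02 and 0.01 for all genes tested. The cytosolic medians were 0.06, 0.12, 0.08 and -0.11. The last was 0.0152 when library totals replaced TMM scaling, and that change of scale moved the median of all genes at 120 h to 0.13 and the cytosolic falls to 8.

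These counts depended on single libraries. Without 2iL experiment 2 or 48 h experiment 4 the cytosolic rises at 48 h came to 0, and without 2iL experiment 2 those at 96 h came to 4. Without 2iL experiment 3 the cytosolic falls at 120 h came to 13. With the experiment as a block the cytosolic rises at 24 h came to 7 and the cytosolic falls at 48 h to 1. The mitochondrial rises at 48 h stayed between 10 and 14, and the mitochondrial falls at 120 h between 16 and 24, whichever library was left out. The mitochondrial rises at 24 h, 8 with all libraries, were less steady. They were fewer whichever library was left out, with library totals and without the filter on low counts, as given in the last section.

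Most changes were small. At 120 h, 75 of 83 cytosolic genes (90.4%) and 49 of 72 mitochondrial genes (68.1%) had a log2 fold change between -0.5 and 0.5, while the middle 50% of all genes tested reached down to -0.52 and up to 0.64. Over all 9 comparisons of 2 groups, 40 of 83 cytosolic and 41 of 72 mitochondrial genes were called at least once, where 65.6% of all genes tested were. A gene that was not called may still have changed.

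**Figure D2:**
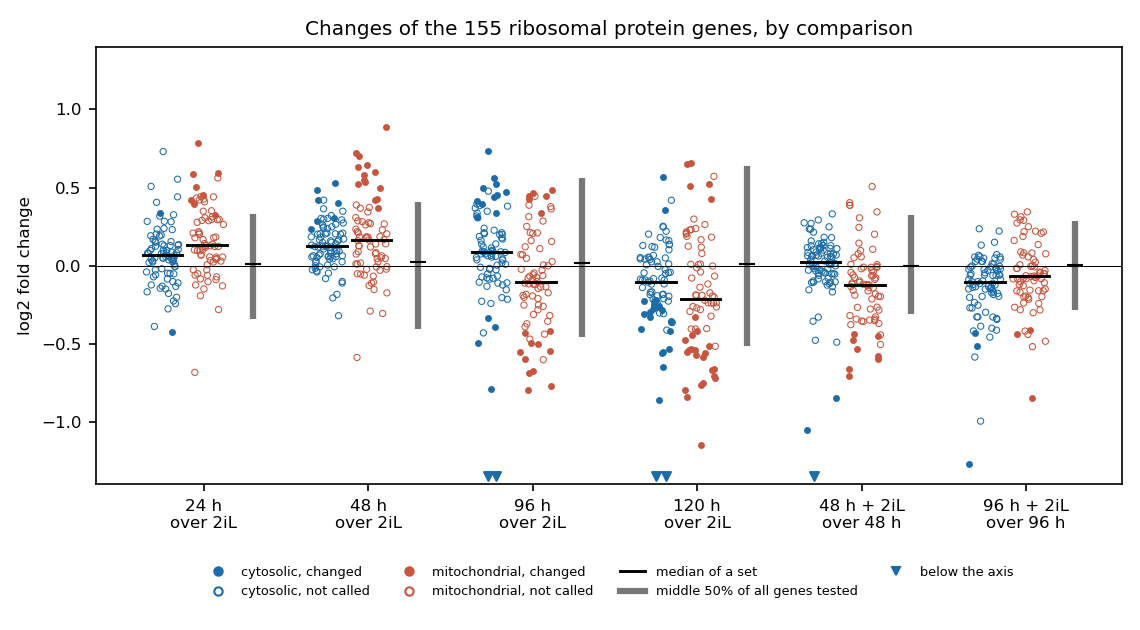
log2 fold change of each of the 155 genes in 6 comparisons (x axis), each group over the 1 it is set against; filled points were called changed, black lines are set medians, and grey bars span the middle 50% of all 11080 genes tested. The 5 triangles mark Rpl10l and Rpl39l at 96 and 120 h and Rpl39l in 48 h + 2iL over 48 h, which lie below the axis.

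The paralogs Rpl10l and Rpl39l fell far more than any other member. Rpl10l (chromosome 12, 66283379 to 66284401, minus strand, GRCm38) measured, in experiments 1 to 4, 148, 165, 202 and 185 CPM in 2iL, 179, 169.7, 312 and 211 CPM at 24 h, 127, 121, 179 and 226 CPM at 48 h, 22.9, 29.5, 7.85 and 19.1 CPM at 96 h, and 7.09, 6.46, 4.05 and 3.57 CPM at 120 h. Its libraries overlapped with 2iL at 24 and 48 h and all lay below 2iL at 96 and 120 h. The log2 fold change over 2iL was 0.32 ± 0.24 (SE; adjusted p = 0.4255) at 24 h, -0.10 ± 0.24 (adjusted p = 0.8022) at 48 h, -3.13 ± 0.28 (adjusted p = 9.63e-11) at 96 h and -5.02 ± 0.34 (adjusted p = 1.41e-13) at 120 h.

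Rpl39l (chromosome 16, 10170226 to 10174911, plus strand) measured 81.2, 49.8, 67.3 and 52.8 CPM in 2iL, 108, 91.0, 117 and 102 CPM at 24 h, 42.0, 40.5, 50.1 and 89.5 CPM at 48 h, 7.34, 7.68, 1.74 and 2.84 CPM at 96 h, and 2.24, 3.48, 1.80 and 0.893 CPM at 120 h. All 24 h libraries lay above all 2iL libraries, with a log2 fold change of 0.73 ± 0.26 that did not pass edgeR's test (adjusted p = 0.05093) but did pass that of DESeq2 (adjusted p = 0.03875) and edgeR's with the experiment as a block (adjusted p = 0.03145). The later changes were -0.18 at 48 h (adjusted p = 0.6617), -3.67 ± 0.33 at 96 h (adjusted p = 1.21e-10) and -4.88 ± 0.38 at 120 h (adjusted p = 3.73e-12). For both paralogs the calls at 96 and 120 h held whichever library was left out and in every other setting tried.

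Neither parent gene was called as fallen at 96 or 120 h. Rpl39 measured 186, 164, 157 and 192 CPM at 120 h, against 175, 150.3, 149 and 152 CPM in 2iL (log2 fold change 0.16 ± 0.14, adjusted p = 0.3787), and it was called in none of the 9 comparisons. Rpl10 measured 130.3, 131, 124 and 114 CPM at 96 h, against 100.5, 74.7, 86.4 and 77.2 CPM in 2iL, a rise of 0.56 ± 0.19 (adjusted p = 0.01914) that lost its call without 2iL experiment 2 (adjusted p = 0.06649) or 2iL experiment 4 (adjusted p = 0.05732). At 120 h Rpl10 measured 116, 115, 68.0 and 95.6 CPM, which did not pass the test (0.22, adjusted p = 0.3694). Of the last 300 bases, Rpl10l and Rpl39l shared no 50-base stretch with another annotated gene, whereas Rpl39 shared 21.1% and Rpl10 90.4%, so the level of Rpl10 rests on the small part of its 3′ end that is unique.

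The ratio of each paralog to its parent within a library was compared by an exact two-sided permutation test of 4 against 4 libraries, whose smallest possible p is 0.0286; 12 ratios were tested. The log2 ratio of Rpl10l to Rpl10 averaged -4.25 ± 0.33 at 120 h, against 1.05 ± 0.33 in 2iL (SD, n = 4 each; exact permutation p = 0.0286, adjusted p = 0.049). The log2 ratio of Rpl39l to Rpl39 averaged -6.53 ± 0.91 at 120 h, against -1.34 ± 0.25 in 2iL, with the same p. At 24 h the Rpl39l ratio was higher, -0.67 ± 0.28 against -1.34 ± 0.25 in 2iL (SD, n = 4 each; exact permutation p = 0.0286, adjusted p = 0.049). The Rpl10l ratio did not pass the exact permutation test at 24 h (difference 0.17, p = 0.629, adjusted p = 0.629) or at 48 h (-0.48, p = 0.0571, adjusted p = 0.0857). The Rpl39l ratio at 48 h did not pass it either (difference -0.43, exact p = 0.2, adjusted p = 0.24). At 96 h the differences from 2iL were -3.85 (Rpl10l) and -4.11 (Rpl39l). In 48 h + 2iL over 48 h they were -1.08 and -1.97, all with exact p = 0.0286 and adjusted p = 0.049. In 96 h + 2iL over 96 h neither ratio passed the exact test (-0.98, adjusted p = 0.152 for Rpl10l, and -0.75, adjusted p = 0.25 for Rpl39l).

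After 24 h with 2iL again, both paralogs were lower than at 48 h. These cells were also collected 24 h later than the 48 h cells, and no group without 2iL matches their total time. The return of 2iL and the added time therefore cannot be told apart. Rpl10l in 48 h + 2iL cells measured 72.8, 72.8, 58.2 and 110.3 CPM, against 127, 121, 179 and 226 CPM at 48 h (log2 fold change -1.05 ± 0.25, adjusted p = 0.003182). Rpl39l measured 15.2, 16.4, 7.07 and 15.4 CPM in 48 h + 2iL cells, against 42.0, 40.5, 50.1 and 89.5 CPM at 48 h (-2.04 ± 0.30, adjusted p = 7.16e-06). In both cases every library with 2iL again was below every library at 48 h, and both calls held whichever library was left out.

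In the same libraries the 10 naive pluripotency markers moved the other way. Of these markers, among them Nanog, Klf4 and Esrrb, 9 rose in 48 h + 2iL over 48 h, and their summed level was 1532 to 1841 CPM in 48 h + 2iL cells, 298 to 469 CPM at 48 h and 2241 to 2526 CPM in 2iL. Against 2iL itself, 48 h + 2iL cells had log2 fold changes of -1.16 ± 0.25 for Rpl10l (adjusted p = 0.001881) and -2.22 ± 0.29 for Rpl39l (adjusted p = 3.25e-06).

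After 96 h the paralogs were already low. Rpl10l measured 10.9, 11.6, 3.41 and 6.21 CPM in 96 h + 2iL cells, against 22.9, 29.5, 7.85 and 19.1 CPM at 96 h, and the groups overlapped. The log2 fold change of -1.27 ± 0.36 (adjusted p = 0.01938) lost its call without 96 h experiment 1 (adjusted p = 0.05736), 96 h experiment 2 (0.1148), 96 h + 2iL experiment 3 (0.08458) or 96 h + 2iL experiment 4 (0.06217). Rpl39l measured 3.32, 3.30, 1.46 and 1.24 CPM in 96 h + 2iL cells, against 7.34, 7.68, 1.74 and 2.84 CPM at 96 h (-0.996 ± 0.48, adjusted p = 0.2129). Against 120 h, the same total time, the test was passed by neither (log2 fold changes 0.62 ± 0.44, adjusted p = 0.6138 for Rpl10l; 0.21 ± 0.57, adjusted p = 0.93 for Rpl39l), with SEs that leave changes of over 1 log2 unit within reach.

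**Figure D3:**
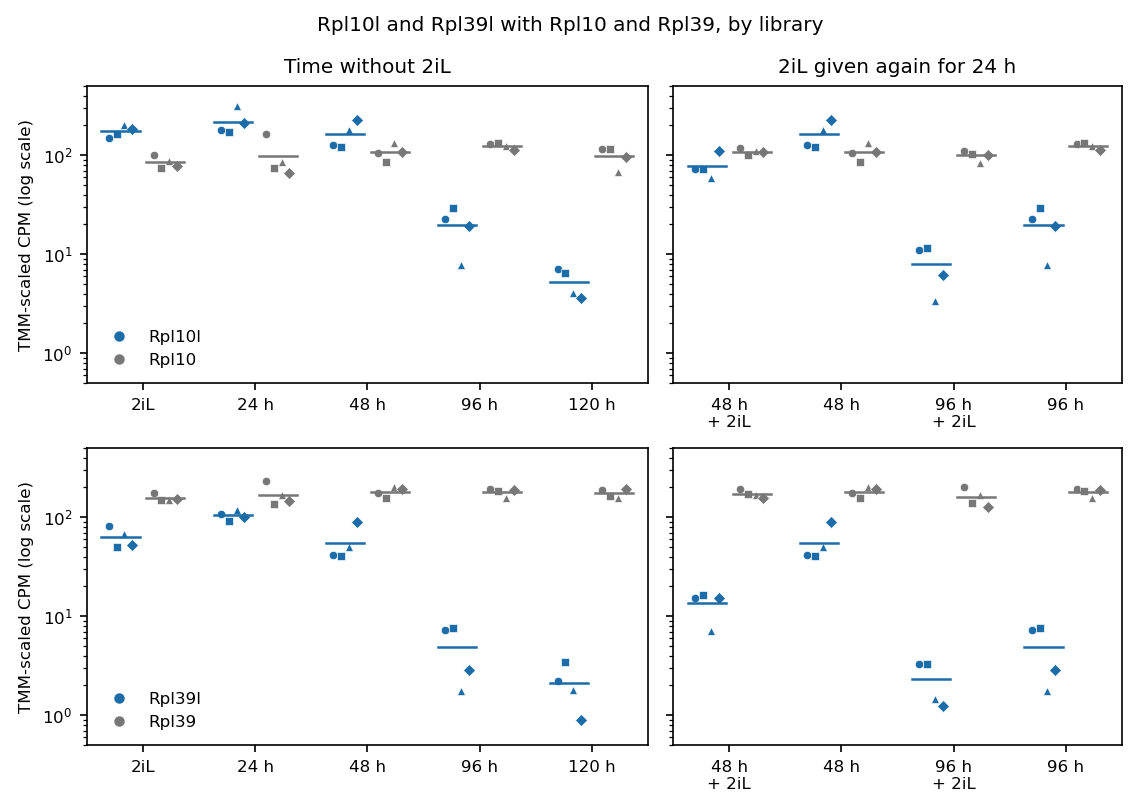
Level (TMM-scaled CPM, log scale) of Rpl10l with Rpl10 (top) and Rpl39l with Rpl39 (bottom) in each library; symbols are the experiments, lines the group means. At 120 h Rpl10l lay between 3.57 and 7.09 CPM and Rpl39l between 0.893 and 3.48 CPM, while Rpl39 stayed between 157 and 192 CPM.

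Among the other 6 paralogs and related genes, Rpl7l1, a paralog of Rpl7 with a part in large subunit assembly, changed to a smaller degree. It measured 200.003, 143, 144 and 128 CPM in 2iL, 167, 164, 161 and 167 CPM at 24 h, 159.7, 152, 165 and 138 CPM at 48 h, 116, 110.4, 107 and 104 CPM at 96 h, and 112, 102, 103 and 101 CPM at 120 h. Its libraries at 96 and 120 h lay below all those in 2iL, with log2 fold changes of -0.50 ± 0.13 (adjusted p = 0.002384) and -0.56 ± 0.13 (adjusted p = 0.0006213). Rps27rt, a retrotransposed copy of Rps27, had 15.1 to 16.6 CPM at 96 h, against 19.3, 27.05, 31.2 and 33.5 CPM in 2iL (-0.79 ± 0.22, adjusted p = 0.004444), but 88.4% of its 3′ stretches occur in other genes, so its counts are uncertain. Rpl22l1, Rpl36al and Rps19bp1 were called in none of the 9 comparisons by edgeR, and DESeq2 called Rps19bp1 as risen at 24 h (0.41, adjusted p = 0.03937), as did edgeR with the experiment as a block (adjusted p = 0.03923).

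The stalk, the flexible arm of the large subunit that recruits elongation factors, is built from Rplp0, Rplp1 and Rplp2. Rplp2 measured 2427, 2211, 2081 and 2339 CPM at 120 h, against 2903, 2988, 3035 and 3057 CPM in 2iL, and fell by 0.40 ± 0.08 on the log2 scale (adjusted p = 4.09e-05). Rplp0 did not pass the test at 120 h (0.05 ± 0.10, adjusted p = 0.6811), nor did Rplp1 (-0.19 ± 0.14, adjusted p = 0.2988). Rplp0 in 48 h + 2iL cells measured 914, 818, 1003 and 1011 CPM, against 664, 653, 771 and 723 CPM in 2iL (0.41 ± 0.10, adjusted p = 0.004186), a higher level in every library. Whether the 3 stalk genes differ from each other in their response was not tested.

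Among the 72 core subunit genes, Rpl11, which together with Rpl5 and the 5S rRNA can bind Mdm2, had the largest called rise during withdrawal. It measured 186, 145, 149.6 and 155 CPM at 96 h, against 99.5, 82.9, 87.5 and 113 CPM in 2iL (0.73 ± 0.17, adjusted p = 0.0006234), and 135, 137, 130.1 and 162 CPM at 120 h (0.56 ± 0.17, adjusted p = 0.00617). Rpl41, which encodes the smallest ribosomal protein, measured 1423, 915, 871 and 822 CPM at 96 h, against 806, 705, 609.8 and 686 CPM in 2iL (0.52 ± 0.13, adjusted p = 0.001608). Rpl28 was higher in 48 h + 2iL cells, at 710.2, 636, 764 and 734 CPM, against 475, 448, 515 and 494 CPM in 2iL (0.56 ± 0.13, adjusted p = 0.004692). Each of these groups lay wholly above 2iL, and each call held whichever library was left out and in every other setting.

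The falls at 120 h included the large subunit genes Rpl14 and Rpl13a and the small subunit gene Rps20. Rpl14 measured 2245, 2207, 2437 and 2044 CPM at 120 h, against 2667, 3258, 3483 and 3518 CPM in 2iL (-0.53 ± 0.12, adjusted p = 0.0003288). Rpl13a measured 283, 194, 212 and 215 CPM at 120 h, against 341, 306, 351 and 329 CPM in 2iL (-0.55 ± 0.13, adjusted p = 0.0004967). Both groups lay wholly below 2iL, and both calls held throughout. Rps20, the member with the highest mean, measured 5725, 5712, 6508 and 5747 CPM at 120 h, against 5665, 8128, 8763 and 9092 CPM in 2iL (-0.42, adjusted p = 0.01185). The library of 2iL experiment 1 lay below all 4 libraries at 120 h and the other 3 above them, and the call was lost without 2iL experiment 3 (adjusted p = 0.05124) and with library totals (-0.30, adjusted p = 0.06087).

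Rpl6 stood out because its level differed by experiment. In experiments 1 to 4 it measured 2465, 1637, 982 and 1047 CPM in 2iL, 2865, 3564, 1085 and 1476 CPM at 24 h, 2558, 3058, 1221 and 1358 CPM at 48 h, 1323, 1286, 844 and 1095 CPM at 96 h, and 934, 888, 789 and 759.5 CPM at 120 h. Experiments 1 and 2 were above experiments 3 and 4 in every one of these groups. Its log2 fold change at 120 h was -0.86 ± 0.28 (adjusted p = 0.0122). Without 2iL experiment 1 it was -0.55 (adjusted p = 0.1123), and with the experiment as a block it was -0.77 (adjusted p = 0.0002786).

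The cytosolic genes were also grouped by how much of the 3′ end is shared. Of the 75 core and stalk genes, the 8 that shared no 50-base stretch with another annotated gene had a median log2 fold change of -0.30, and 6 of them fell and 0 rose, where 22.6% of all genes tested fell and 24.6% rose. The 27 that shared under 50% had a median of -0.12, with 9 falls and 0 rises, and the 40 that shared at least 50% had a median of -0.03, with 3 falls and 2 rises. In the classes with 0 rises by edgeR, 0 genes were higher at an unadjusted p under 0.05 and DESeq2 called 0. Without 2iL experiment 3 the falls in the unshared class came to 3, without 120 h experiment 3 those in the middle class came to 5, and without 2iL experiment 3 or 120 h experiment 3 those in the most shared class came to 1. When TMM gave way to library totals, the falls were 2, 2 and 1 in the order of the classes given. Mean level moved with the class too: in the deposited CPM without TMM, the median gene had 2100.9 CPM in the unshared class, 920.7 CPM in the middle class and 448.2 CPM in the most shared class, and the part of level or of uncounted reads in the pattern was not tested.

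**Figure D4:**
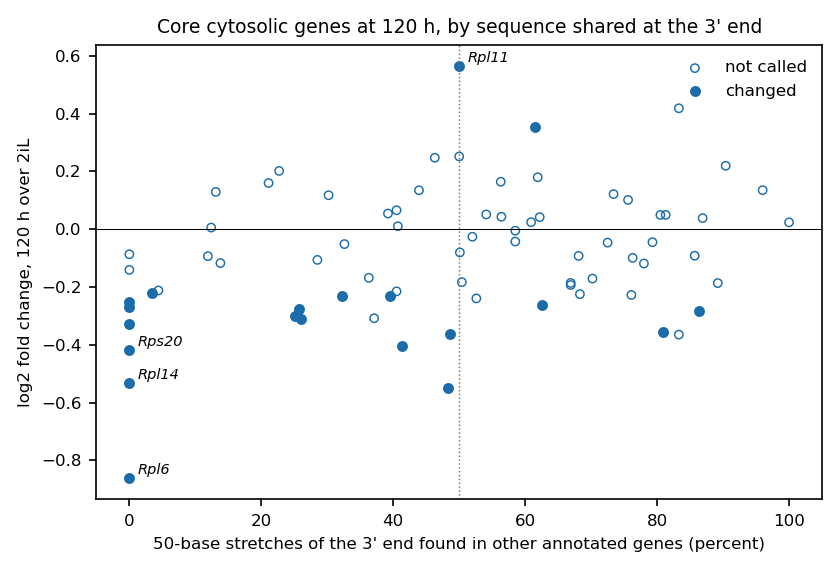
log2 fold change at 120 h over 2iL (y axis) of the 75 core and stalk cytosolic genes against the percentage of 50-base stretches in the last 300 bases that occur in another annotated gene (x axis); filled points were called changed and the dotted line is at 50%. Of the 8 genes at 0%, 6 fell, and the risen gene Rpl11 lies on the 50% line.

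In the mitochondrial set the early rise was led by Mrps17, a small subunit protein whose start region is shown above. Mrps17 measured 47.8, 46.8, 50.7 and 34.6 CPM in 2iL, 95.4, 66.0, 62.4 and 88.5 CPM at 24 h, 86.1, 65.7, 81.2 and 102 CPM at 48 h, 80.7, 45.3, 50.6 and 56.4 CPM at 96 h, and 53.7, 47.2, 52.7 and 51.3 CPM at 120 h. All libraries at 24 and 48 h lay above all in 2iL, and those at 96 and 120 h overlapped with 2iL. The rises were 0.78 ± 0.18 at 24 h (adjusted p = 0.001681) and 0.88 ± 0.17 at 48 h (adjusted p = 0.0001935). The 48 h + 2iL cells measured 55.1, 56.4, 42.8 and 56.8 CPM, below every library at 48 h (-0.66 ± 0.17, adjusted p = 0.007123).

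Mrps34, another small subunit protein, measured 90.2, 117, 130.0 and 102 CPM at 48 h, against 80.2, 66.1, 58.2 and 61.9 CPM in 2iL (0.72 ± 0.19, adjusted p = 0.003484). It was the mitochondrial gene with the largest fall when 2iL was given again after 96 h, with 62.7, 42.9, 46.7 and 49.0 CPM in 96 h + 2iL cells, against 101, 97.4, 74.1 and 89.2 CPM at 96 h (-0.85 ± 0.19, adjusted p = 0.003411). Both differences were without overlap and held whichever library was left out. At 120 h, the same total time as in 96 h + 2iL cells, Mrps34 measured 45.5 to 82.8 CPM without 2iL. It was not called in 96 h + 2iL over 120 h. It measured 73.8, 71.5, 42.4 and 81.0 CPM in 48 h + 2iL cells, below every library at 48 h (-0.71 ± 0.19, adjusted p = 0.007735), a call that was lost without 48 h + 2iL experiment 3 (adjusted p = 0.05672).

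Among large subunit genes, Mrpl12, the mitochondrial counterpart of the bacterial stalk protein L7/L12, measured 335, 331, 362 and 341 CPM at 48 h, against 235, 238, 257 and 221 CPM in 2iL (0.52 ± 0.11, adjusted p = 0.0005697). Mrpl18 measured 191, 179, 189 and 209 CPM at 48 h, against 150.2, 134, 126 and 119 CPM in 2iL (0.54 ± 0.11, adjusted p = 0.0004845). Mrpl34 measured 272, 296, 261 and 260.0 CPM at 48 h, against 203, 197, 165 and 129 CPM in 2iL (0.65 ± 0.18, adjusted p = 0.005669). All 3 lay wholly above 2iL at 48 h. Mrpl20 (0.63 ± 0.15, adjusted p = 0.001212) and Mrpl51 (0.58 ± 0.17, adjusted p = 0.007658) rose at 48 h as well, and each of these 5 calls held in every setting. The larger rise of Mrpl48 at 48 h (0.70 ± 0.26, adjusted p = 0.04529) lost its call without any 1 of 7 libraries and in 4 of 7 other settings.

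Late in withdrawal the largest mitochondrial fall was that of Mrps24, a small subunit protein. It measured 87.0, 82.4, 67.6 and 94.3 CPM in 2iL, 82.7, 91.9, 73.7 and 91.2 CPM at 24 h, 97.0, 78.5, 74.5 and 84.0 CPM at 48 h, 57.8, 63.5, 48.8 and 56.0 CPM at 96 h, and 45.9, 33.8, 36.0 and 32.6 CPM at 120 h. It overlapped with 2iL at 24 and 48 h and lay wholly below it at 96 and 120 h. The log2 fold changes were -0.55 ± 0.15 at 96 h (adjusted p = 0.004519) and -1.15 ± 0.16 at 120 h (adjusted p = 3.58e-07). In 96 h + 2iL cells it measured 47.0, 47.0, 42.3 and 31.7 CPM, below every 2iL library (-0.97 ± 0.16, adjusted p = 8.80e-06). At 96 h the largest mitochondrial fall was that of Mrpl36 (-0.795 ± 0.23, adjusted p = 0.005101).

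Mrps16 measured 80.6, 51.7, 68.9 and 66.5 CPM at 120 h, against 111, 128, 103 and 115 CPM in 2iL (-0.77 ± 0.14, adjusted p = 4.42e-05). Mrps5 measured 185, 199.7, 165 and 179 CPM at 120 h, against 254, 259, 288 and 260.1 CPM in 2iL (-0.54 ± 0.11, adjusted p = 0.0001154). Mrpl17 measured 109, 115, 94.6 and 113 CPM at 120 h, against 147, 173, 172 and 149.9 CPM in 2iL (-0.57 ± 0.13, adjusted p = 0.0004221). These groups did not overlap either. Further falls that held in every setting were those of Mrpl19 (-0.84 ± 0.20, adjusted p = 0.0007587), of Mrps12, the homologue of the bacterial decoding-site protein S12 (-0.80 ± 0.20, adjusted p = 0.001294), of Mrps2 (-0.71 ± 0.16, adjusted p = 0.0005739) and of Mrpl35 (-0.66 ± 0.15, adjusted p = 0.0005588).

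A few mitochondrial genes rose instead at 120 h. Mrps6 measured 66.0, 78.0, 89.6 and 75.9 CPM, against 31.4, 63.5, 49.97 and 51.1 CPM in 2iL (0.65 ± 0.18, adjusted p = 0.00327). Mrpl11, part of the site where translation factors bind, measured 105, 109.8, 116 and 117 CPM at 120 h, against 75.4, 83.3, 72.1 and 80.6 CPM in 2iL (0.52 ± 0.12, adjusted p = 0.0007494). Both groups lay wholly above 2iL, and Mrpl11 was also called risen at 24, 48 and 96 h. The call at 24 h was lost without any 1 of 5 libraries, namely 2iL experiments 1, 3 and 4 and 24 h experiments 1 and 2, with adjusted p between 0.05047 and 0.1293. It was also lost with library totals (0.08648) and without the filter on low counts (0.1626). Mrpl58, a peptidyl-tRNA hydrolase that rescues stalled mitochondrial ribosomes, averaged 121 ± 21.2 CPM at 120 h, against 84.9 ± 7.92 CPM in 2iL (SD, n = 4 each; 0.51 ± 0.15, adjusted p = 0.005542). Mrpl3 rose at 120 h as well (0.65 ± 0.20, adjusted p = 0.006616).

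**Figure D5:**
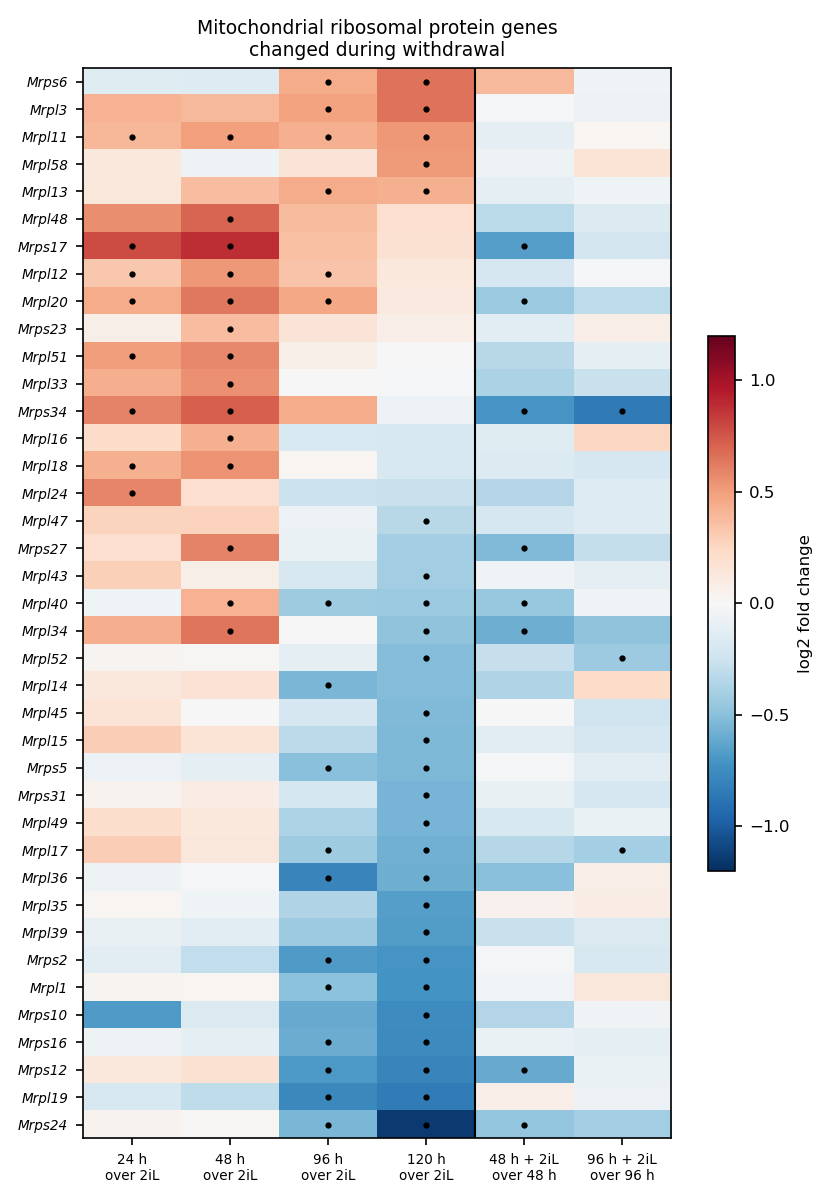
log2 fold change (colour scale) of the 39 mitochondrial genes called changed in at least 1 of the 4 withdrawal comparisons, ordered by their change at 120 h; columns left of the line are withdrawal over 2iL, columns right of it are 2iL given again over the time at which it was given, and dots mark calls. Mrps17 is the strongest rise at 48 h (0.88) and Mrps24 the strongest fall at 120 h (-1.15).

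When 2iL was given again after 48 h, the calls in both sets were falls, and no group without 2iL matches those cells in total time. In 48 h + 2iL over 48 h, 8 mitochondrial genes fell and 0 rose, where 7.24% of all genes rose and 7.67% fell. In the cytosolic set 3 genes fell and 0 rose. The mitochondrial falls were Mrps34, Mrps17, Mrps12, Mrpl34, Mrps27, Mrps24, Mrpl40 and Mrpl20, with log2 fold changes between -0.71 and -0.44, and without 48 h + 2iL experiment 3 their number came to 1. It came to between 3 and 5 without 48 h experiment 2, 3 or 4 or without 48 h + 2iL experiment 1 or 4. At an unadjusted p under 0.05, 2 mitochondrial and 3 cytosolic genes were higher, and DESeq2 called 0 higher in both sets. The cytosolic falls were Rpl10l, Rpl39l and Rpl6. The gene Rpl6 lost its call without any 1 of 5 libraries, 48 h experiments 1 and 2 and 48 h + 2iL experiments 2, 3 and 4, with adjusted p between 0.06243 and 0.2103. It was also lost by DESeq2 (0.05873) and with library totals without Gm42418 and mitochondrially encoded genes (0.05212). The set medians were -0.12 (mitochondrial) and 0.02 (cytosolic).

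In 96 h + 2iL over 96 h, 3 mitochondrial genes (Mrps34, Mrpl52, Mrpl17) and 3 cytosolic genes (Rpl10l, Rpl13a, Rps27l) fell and 0 rose in either set, where 4.02% of all genes rose and 5.23% fell. At an unadjusted p under 0.05, 0 were higher in either set, and DESeq2 called 0 higher. With the experiment as a block the cytosolic falls came to 5. In edgeR's test the call of Mrpl52 (adjusted p = 0.04859) was lost without any 1 of 7 libraries and in 5 of 7 other settings. That of Rps27l (0.04088) was lost without any 1 of 7 libraries and in 1 setting. That of Mrpl17 (0.04256) was lost without any 1 of 5 libraries and in 3 settings. Rpl13a measured 310.4, 249.6, 198 and 234 CPM in 96 h + 2iL cells, against 389.5, 359, 285 and 386 CPM at 96 h, and its call (-0.52 ± 0.13, adjusted p = 0.006826) held throughout. At 120 h, the same total time without 2iL, Rpl13a measured 194 to 283 CPM, and it was not called in 96 h + 2iL over 120 h. Without single libraries the numbers of falls in 96 h + 2iL over 96 h ranged from 1 to 4 (cytosolic) and from 1 to 3 (mitochondrial).

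Compared with 120 h, which matches the total time, 96 h + 2iL cells had a call for 1 cytosolic gene, a rise, and 0 mitochondrial genes, by edgeR and by DESeq2 alike for the mitochondrial set, where 1.28% of all genes rose and 1.34% fell. The gene was Rplp2, at 2731, 2926, 2677 and 2927 CPM in 96 h + 2iL cells, against 2427, 2211, 2081 and 2339 CPM at 120 h (0.31 ± 0.08, adjusted p = 0.01472). The call was lost without 120 h experiment 2 (adjusted p = 0.05055), 120 h experiment 3 (0.06365) or 96 h + 2iL experiment 2 (0.06845), and without the filter on low counts (0.05882). At an unadjusted p under 0.05, 3 mitochondrial genes were higher and 1 lower. All 72 mitochondrial log2 fold changes in this comparison lay between -0.5 and 0.5. Against 2iL, 96 h + 2iL cells had 17 mitochondrial falls and 3 rises and 9 cytosolic falls and 4 rises (19.5% of all genes fell and 21.4% rose). The 48 h + 2iL cells had 1 mitochondrial fall and 2 rises and 2 cytosolic falls and 5 rises (5.49% fell and 6.14% rose). With the experiment as a block the last count came to 11.

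Whether the change over 24 h with 2iL differed between 48 and 96 h was tested as an interaction. Each of these changes holds both the return of 2iL and 24 h more time. In edgeR's test 0 of 83 cytosolic and 0 of 72 mitochondrial genes passed, where 0.451% and 0.469% of all genes were called in the 2 directions. In these sets 6 cytosolic and 3 mitochondrial genes had an unadjusted p under 0.05, and DESeq2 called 0. The lowest adjusted p was 0.19 in the cytosolic and 0.3137 in the mitochondrial set. So the calls of Rpl39l after 48 h but not after 96 h are not shown to differ.

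Components of both ribosomes with symbols outside the naming rule were set beside the members, at 120 h, where 24.6% of all genes rose and 22.6% fell. Of 6 mitochondrial components, Gadd45gip1 (-1.001 ± 0.18, adjusted p = 3.37e-05), Ptcd3 (-0.64 ± 0.17, adjusted p = 0.001707) and Aurkaip1 (-0.46 ± 0.12, adjusted p = 0.002841) fell at 120 h, and Chchd1, a small subunit protein, rose (0.84 ± 0.13, adjusted p = 3.88e-06). Dap3, a small subunit GTPase, did not pass the test (0.02, adjusted p = 0.9473). Among cytosolic components, Rack1 fell at 120 h (-0.21), a call lost without 2iL experiment 3 (adjusted p = 0.07907) or 120 h experiment 3 (0.08434). With library totals Rack1 was at -0.0926 (0.3482), with the totals without Gm42418 and mitochondrially encoded genes at -0.14 (0.126), and without the filter at -0.22 (0.1215), all outside the call. The genes Rpsa (-0.16, adjusted p = 0.1379) and Fau (-0.17, adjusted p = 0.1014) did not pass.

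Genes that build the cytosolic ribosome were called as rises early and mostly as falls late. Of 75 nucleolar processing and assembly genes, 11 (14.7%) rose and 0 fell at 24 h, where 7.68% of all genes rose and 8.29% fell, and 28 (37.3%) rose and 0 fell at 48 h, where 14.6% rose and 13.2% fell. At 48 h they had a median log2 fold change of 0.30, beside 0.12 for the 83 ribosomal protein genes and 0.02 for all genes tested. Ebna1bp2 (0.89 ± 0.13) and Lyar (0.81 ± 0.11), both nucleolar, were among the rises at 48 h that held in every setting. For the counts of 0 falls at 24 and 48 h, 0 genes were lower at an unadjusted p under 0.05 and DESeq2 called 0. At 120 h, 5 of the 75 rose and 24 (32%) fell, with a median of -0.20, where 24.6% of all genes rose and 22.6% fell. The count of rises at 48 h ranged from 19 to 26 and that of falls at 120 h from 16 to 26 with a library left out; the 24 h rises came to 6 without 2iL experiment 2 or 2iL experiment 4 and to 5 without 24 h experiment 4.

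Of 19 genes of RNA polymerase I and its factors, 3 (15.8%) rose and 0 fell at 48 h, close to the 14.6% of all genes that rose, and 0 rose and 7 (36.8%) fell at 120 h, where 22.6% of all genes fell. Both counts of 0 were also 0 at an unadjusted p under 0.05 and by DESeq2. Among the falls were Rrn3, its initiation factor (-1.10 ± 0.14, adjusted p = 1.02e-07), and Ubtf, which binds rDNA (-0.66 ± 0.12). The nucleolar gene Tcof1 fell by 0.89 ± 0.10 (adjusted p = 1.97e-08). Mycn, a MYC family transcription factor, rose by 1.70 ± 0.20 at 48 h (adjusted p = 6.88e-08) and was at 0.45 at 120 h (adjusted p = 0.07211). Of 38 translation factors and related genes, 11 (28.9%) rose and 4 (10.5%) fell at 48 h, where 14.6% of all genes rose and 13.2% fell, and 7 rose without 2iL experiment 2 or 2iL experiment 4. At 120 h, 7 of the 38 (18.4%) rose and 6 (15.8%) fell, where 24.6% of all genes rose and 22.6% fell. Mtor (-0.14, adjusted p = 0.6493) and Larp1 (-0.13, adjusted p = 0.3943) did not pass the test at 120 h.

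On the mitochondrial side, 0 of 10 mitochondrially encoded mRNAs rose and 6 fell at 120 h, among them mt-Nd2, a subunit of complex I (-1.16 ± 0.14, adjusted p = 3.23e-08), and 3 fell without 2iL experiment 3 or 120 h experiment 3. For the rises, 0 of the 10 were higher at an unadjusted p under 0.05 and DESeq2 called 0. Of 16 genes of mitochondrial transcription and genome upkeep, 1 rose and 4 fell at 120 h, including Polrmt, the mitochondrial RNA polymerase (-0.91 ± 0.24, adjusted p = 0.001898); Tfam, its partner, rose at 48 h (0.62 ± 0.13, adjusted p = 0.0003257). Of 24 mitochondrial ribosome assembly genes 0 rose (1 at an unadjusted p under 0.05, 0 by DESeq2) and 4 fell at 120 h. Of 17 mitochondrial tRNA synthetases 1 rose and 5 fell (3 without 2iL experiment 3 or 120 h experiment 1). Of 15 mitochondrial translation factors 2 rose and 2 fell. The background for these lists at 120 h is that 24.6% of all genes rose and 22.6% fell.

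The start regions of both sets were richer in CG dinucleotides than the median start region of all genes. A RefSeq entry, a 300-base window around the annotated start, was found for 64 of 83 cytosolic and 64 of 72 mitochondrial genes. A gene with several windows was given their mean composition, and held a motif if any of its windows did. The median ratio of observed to expected CG dinucleotides was 0.863 (cytosolic) and 0.818 (mitochondrial), against 0.39 over all 27025 genes with an entry. The ETS-type motif CCGGAAG, searched on both strands, occurred in 39.1% of cytosolic and 35.9% of mitochondrial genes with an entry, against 9.93% of all. The YY1 motif AAGATGG occurred in 15.6% and 20.3%, against 7.28%. The pyrimidine-rich hexamer CTTTCC was searched on the gene strand from 50 bases before to 50 after the start. It was held by 32.8% of cytosolic and 7.81% of mitochondrial genes with an entry, against 5.43% of all. The background held all genes with an entry, expressed in these cells or not, while the members were chosen for expression. The differences are therefore not shown to be particular to ribosomal protein genes. A match of letters is a description and shows no binding.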

How the data were processed

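Polyadenylated RNA of 28 libraries was sequenced by 3′ digital gene expression. The mm10 genome, STAR 2.6.0a, HTSeq and bcl2fastq are named in the submitters' processing notes. Each deposited file of 1 library gives the authors' raw count per gene for uniquely mapped reads, and a deposited series table gives CPM; per the file values, the CPM of all 28 columns equalled the counts divided by the library total (tolerance 1e-06). The 5 rows of each count file that name no gene were left out. No 2 libraries held identical values.

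The members and gene lists were chosen with earlier results of these data known. Counts were tested with edgeR 4.0.16 (R 4.3.3, limma 3.58.1): TMM scaling, filterByExpr (minimum count 10, minimum total 15; 11080 genes kept), 1 quasi-likelihood fit over all 28 libraries with a mean per group, and Benjamini-Hochberg adjustment over all genes tested. Log2 fold changes carry edgeR's coefficient and SE; levels of genes are CPM scaled by TMM over the genes kept, and the 5 CPM rule and shares of counts carry no TMM. The gene IDs were placed with the GENCODE M21 annotation (GRCm38), and 3′ ends were compared with its transcripts; start regions came from RefSeq (GRCm38.p6). The named genes tallied below were members only: per comparison and set, up to 5 called genes with the largest rise and fall, and the paralogs, parents and stalk genes. The text prints some of these and also other members, among them Mrpl12, Mrpl18 and Mrpl51 at 48 h. Outside the members it gives components with other symbols, and up to 4 called genes per list with Mycn, Mtor, Larp1, Tfam and Polrmt. Rpl6, Rps20, Rpl14, Rpl13a at 120 h and the 3′ end classes were singled out after their values were seen.

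Titles number the experiments 1 to 4 in every group, and the number was read as a shared experiment. Deviations from the group means correlated at a median of 0.068 (-0.042 to 0.419, 84 pairs) between libraries of the same experiment and -0.027 (252 pairs) between others. Alternatives were a replicate block, other scalings (library totals, DESeq2 size factors, TMM outside both sets), no filter, DESeq2 1.42.0, each library left out, other denominators for shares, and library totals without Gm42418 and mitochondrially encoded genes, chosen after seeing the data. The scripts were tested on simulated counts. Precision is limited by depth for the lowest levels: at 1554830 counts, 1 CPM is about 1.55 counts. No promoter entry was used for members missing in the RefSeq table.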

Additional observations from a re-analysis of the deposited data

Results flagged for a closer look

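In each group of 4 libraries, in TMM-scaled CPM and in percent of counts, 26 genes and the 2 summed shares were searched for a library whose gap to the nearest other one, divided by the group's range, passed Dixon's 95% criterion for 4 values. Of 196 such groups 8 were found, and chance gives about 1 in 20. Above the other 3 libraries lay Rpl39 in 2iL experiment 1 (175.4 CPM, others 149.2 to 151.6), Rpl41 at 96 h in experiment 1 (1423 CPM, others 821.6 to 915.2) and Rps20 at 120 h in experiment 3 (6508 CPM, others 5712 to 5747). Below the other 3 lay Mrpl17 at 48 h in experiment 1 (150.9 CPM, others 184.6 to 187.0), Mrpl11 at 96 h in experiment 1 (90.83 CPM, others 108.7 to 109.9), and, in 48 h + 2iL experiment 3, Rpl39l (7.065 CPM, others 15.17 to 16.4) and Mrps17 (42.81 CPM, others 55.1 to 56.79). The mitochondrial share was 0.4571% at 96 h in experiment 3, below the other libraries at 0.4878% to 0.4941%. Of these 8 values, 4 were of experiment 1 and 4 of experiment 3, and no cause was tested.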

How the results depend on the processing

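No call of a named gene reversed under the alternatives run. Of 98 named calls of a gene in a comparison, 48 held whichever library was left out and in every other setting, and 69 held in every other setting. The counts below moved by over 1.5 times, and the cause was not tested. At 24 h the cytosolic rises were 0 with library totals, 3 with DESeq2 size factors, 4 with DESeq2's test, 4 without the filter and 7 with the replicate block; the cytosolic falls were 2 with library totals, and the mitochondrial rises 4 with library totals or without the filter. At 48 h the cytosolic rises were 3 with library totals and 0 with totals without Gm42418 and mitochondrially encoded genes; the cytosolic falls were 1 with either totals, without the filter or with the replicate block; the mitochondrial rises were 9 without the filter. At 96 h the mitochondrial rises were 3 with TMM outside both sets. At 120 h the cytosolic falls were 8 with library totals and 13 with totals without Gm42418 and mitochondrially encoded genes, and the medians with library totals were 0.0152 (cytosolic) and -0.0885 (mitochondrial).

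In 48 h + 2iL over 48 h the cytosolic rises were 1 with library totals or without the filter and 2 with the reduced totals; the mitochondrial falls were 5 with library totals and 4 without the filter. In 96 h + 2iL over 96 h the mitochondrial falls were 1 with either totals and the cytosolic falls 5 with the replicate block. In 48 h + 2iL over 2iL the mitochondrial falls were 0 with library totals or without the filter, the mitochondrial rises 1 with DESeq2 size factors or reduced totals and 0 without the filter, and the cytosolic rises 11 with the replicate block. In 96 h + 2iL over 2iL the cytosolic falls were 5 with either totals, the mitochondrial rises 5 with library totals and the cytosolic rises 2 without the filter. The replicate block moved no other count by over 1.5 times; it added a call to 7 pairs of a named gene and a comparison and took a call from 0.

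With 1 library left out, the cytosolic rises ranged over 0 to 6 (24 h), 0 to 6 (48 h), 4 to 11 (96 h), 1 to 2 (120 h), 0 to 1 (48 h + 2iL over 48 h), 0 to 1 (96 h + 2iL over 120 h), 2 to 8 (48 h + 2iL over 2iL) and 0 to 5 (96 h + 2iL over 2iL); the cytosolic falls over 0 to 3 (24 h), 0 to 1 (48 h), 13 to 23 (120 h), 1 to 4 (96 h + 2iL over 96 h) and 4 to 9 (96 h + 2iL over 2iL). The mitochondrial rises ranged over 2 to 7 (24 h), 2 to 6 (96 h), 0 to 1 (48 h + 2iL over 48 h), 0 to 1 (96 h + 2iL over 120 h), 0 to 2 (48 h + 2iL over 2iL) and 1 to 4 (96 h + 2iL over 2iL); the mitochondrial falls over 0 to 1 (24 h), 1 to 8 (48 h + 2iL over 48 h), 1 to 3 (96 h + 2iL over 96 h) and 0 to 2 (48 h + 2iL over 2iL).

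Summed shares moved with their denominator. As TMM-scaled CPM the cytosolic share was 8.37% at 24 h, 8.82% at 48 h and 7.23% at 120 h, and the mitochondrial share 0.580%, 0.593% and 0.440% at these times and 0.448% in 96 h + 2iL cells. Without mitochondrially encoded genes the cytosolic share was 8.67% at 48 h and 9.06% in 48 h + 2iL cells, and the mitochondrial share 0.582% at 48 h and 0.465% in 96 h + 2iL cells. Without these genes and Gm42418 the cytosolic share was 10.2% in 2iL, 10.1% at 24 h, 10.3% at 48 h, 10.06% at 96 h, 9.25% at 120 h, 10.8% in 48 h + 2iL cells and 10.02% in 96 h + 2iL cells, and the mitochondrial share 0.620%, 0.6996%, 0.689%, 0.587%, 0.563%, 0.632% and 0.560% in the same order. Uncounted multi-mapping reads limit the cytosolic genes that share their 3′ end, and 4 libraries a group limit small changes.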
